A study of Mus musculus with 4 samples.

Results

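Gpr15 and Cldn25 lie next to each other on mouse chromosome 16, and both had more reads in Csnk2b-deficient than in wild-type (WT) regulatory T cells. They are 2 of 28032 features with an exon length in the deposited tables and were picked by name, with their genotype difference in these libraries known. The values of that difference are therefore given as a description, with no test. Messenger RNA was sequenced from CD4+Foxp3+ regulatory T cells (Tregs) that had been sorted from C57BL/6 mice at 8 weeks of age. Csnk2b encodes the beta subunit, which regulates the kinase CK2. Each of the 2 genotypes, WT and Csnk2b-/-, had 1 library from the spleen and 1 from the tracheal lymph nodes (here the node), which drain the airways, or 4 libraries in all. The labels do not name the promoter or cell type in which Csnk2b was deleted, and they do not say whether a library came from 1 animal or a pool.

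Gpr15 encodes a G protein-coupled receptor that guides T cells, among them Tregs, to the large intestine in mice. In mice its expression in T cells is known to depend on the aryl hydrocarbon receptor and to respond to TGF-beta. Claudins are four-pass membrane proteins that seal the space between epithelial cells at tight junctions, and they have relatives in other tissues. The feature called Cldn25 in the tables matches the gene that RefSeq names Cldnd1 (claudin domain containing 1), a four-pass membrane protein of the claudin superfamily. RefSeq lists Cldn25 as a synonym both of Cldnd1 on chromosome 16 and of Cldn25-ps on chromosome 9, and the deposited row lies on chromosome 16 next to Gpr15, as Cldnd1 does. The name of the tables is kept for the counts below.

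In the mm9 coordinates of the tables, Gpr15 spans chr16:58717548-58718837 and is a single exon of 1290 bases with 1 transcript. Cldn25 spans chr16:58728023-58734364, or 6342 bases, and is listed with 19 exons, 2563 exon bases and 6 transcripts. The gap between them is 9185 bases, and no other listed feature lies in it. In RefSeq on GRCm38.p6, Gpr15 is on the minus strand and Cldnd1 on the plus strand, so that the genes point away from each other with their starts 9038 bases apart. Stretches upstream of each RefSeq start are shown because the genes share this interval, and all 4 are read 5′ to 3′ on the strand of their gene. Capitals mark motif matches, and the positions are on GRCm38.p6. The first stretch, chr16:58719071-58719122 on the minus strand, precedes the Gpr15 transcripts annotated by RefSeq and GENCODE. The second, chr16:58719053-58719082, overlaps the end of the first and holds an AP-1 match, and the third, chr16:58718937-58718966, holds a pair of RUNX matches on the opposite strand. The third and most of the second lie inside the longer Gpr15 transcript that GENCODE annotates, which begins at base 58719070. The last, chr16:58727660-58727909 on the plus strand, is the whole window before the Cldnd1 start.
Gpr15 upstream: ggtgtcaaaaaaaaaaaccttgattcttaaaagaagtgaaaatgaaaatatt
Gpr15 AP-1 match: aatgaaaatatTGATTCAattttttttaat
Gpr15 RUNX matches: agaaagaaaACCACAACCACAgccaatacc
Cldnd1 upstream: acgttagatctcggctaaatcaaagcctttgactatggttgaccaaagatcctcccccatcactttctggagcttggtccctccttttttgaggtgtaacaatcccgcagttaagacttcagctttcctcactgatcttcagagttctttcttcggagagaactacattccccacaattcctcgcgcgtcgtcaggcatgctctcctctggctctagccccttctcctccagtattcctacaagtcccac

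Both genes have an entry in the RefSeq promoter table, which runs from 250 bases before to 50 bases after each start. The Gpr15 window was 33.7% G or C with 2 CpG dinucleotides, and the Cldnd1 window was 53.7% G or C with 11. The medians of all 32851 promoters were 52.7% and 7, and 2.61% of promoters had a lower G and C content than that of Gpr15. The motifs below were searched on both strands, and no match overlapped a match of another motif. TGTGGT, the RUNX core, matched at 2 places in Gpr15 and is in 16.8% of promoters. The AP-1 motif, searched as TGANTCA with any base at its centre, matched at 1 place, as TGATTCA, and is in 7.81%. Neither of these motifs was found in the Cldnd1 window. The AHR core was searched as GCGTG, which is in 32.4% of promoters and was found in neither window. The forkhead motif, searched as GTAAACA and held by 3.65% of promoters, was also in neither. The same was true of the SMAD motif, searched as CAGACA and held by 21% of promoters, and of the TATA box, searched as TATAAA and held by 13.6%. A match describes the letters of these windows and nothing more.

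Total exon reads per library ran from 4737814 to 6750695, and 12157 to 15515 genes had at least 1 exon read, the fewest in WT node Tregs. Csnk2b itself had 649 exon reads in WT and 148 in Csnk2b-deficient splenic Tregs, and 667 and 283 in the node. Its log2 difference was -1.54 ± 0.26 (SE, n = 2 per genotype), with an adjusted p of 0.0658 in edgeR's quasi-likelihood test, so it was lower in both tissues and missed the threshold of 0.05. All 8 markers of Tregs and CD4 T cells had reads in the 4 libraries, with a summed level of 4291 to 8595 CPM (exon read counts scaled to a common library size with TMM factors). The labels' protocols give one RNA and library kit for samples 1 and 2 and another for samples 3 and 4, without saying which libraries those numbers name. If they follow the order of listing, tissue, replicate number and kit cannot be told apart.

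Gpr15 had more reads in Csnk2b-deficient Tregs of both tissues. In the spleen it had 89 exon reads in WT and 430 in Csnk2b-deficient Tregs, which are 11.3 CPM (95% exact Poisson interval 9.06 to 13.9) and 74.4 CPM (67.5 to 81.8). In the node it had 145 and 947 exon reads, or 35.4 CPM (29.9 to 41.7) and 208 CPM (195 to 221). Both Csnk2b-deficient libraries were above both WT libraries, and no 2 of the 4 intervals overlapped. Nothing is read from that order, since Gpr15 was picked for this difference. These intervals, and those below, cover the counting error alone, without the spread between animals. The ratio of Csnk2b-deficient to WT was 6.59 in the spleen (95% exact binomial interval 5.23 to 8.38) and 5.86 in the node (4.91 to 7.03). The joint log2 difference was 2.63 ± 0.27 (SE, n = 2 per genotype), and the pairs gave 2.68 in spleen and 2.54 in the node, and it ranked 71 by size among 11113 genes tested. In such bulk libraries a larger share of cells with Gpr15 and more Gpr15 RNA per cell cannot be told apart.

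Cldn25 showed a smaller ratio at a higher level. It had 424 exon reads in WT and 862 in Csnk2b-deficient splenic Tregs, or 53.8 CPM (48.8 to 59.2) and 149 CPM (139 to 159). In the node it had 1302 and 3707 exon reads, or 318 CPM (301 to 336) and 813 CPM (787 to 839). The Csnk2b-deficient library was higher within each tissue, but here the groups overlapped, since WT node Tregs had more than Csnk2b-deficient splenic Tregs. The ratio was 2.77 in the spleen (2.47 to 3.12) and 2.55 in the node (2.40 to 2.72). The joint log2 difference was 1.41 ± 0.19 (SE, n = 2 per genotype), with 1.47 and 1.35 in the pairs, and ranked 537 by size.

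**Figure D1:**
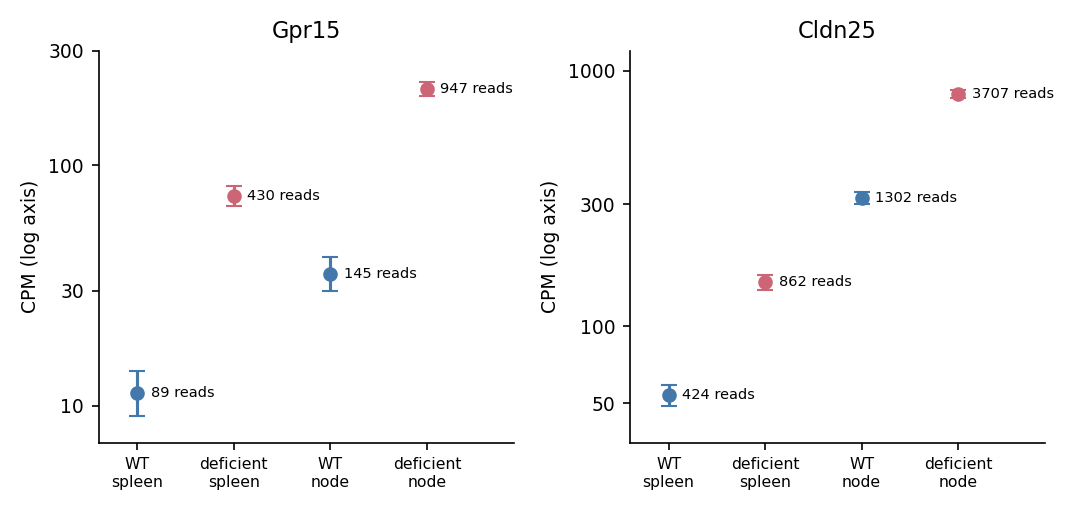
Levels of Gpr15 and Cldn25 in CPM on a log axis in the 4 libraries, blue for WT and red for Csnk2b-deficient Tregs, with 1 point per library, its exon reads beside it and bars for the 95% exact Poisson interval. Gpr15 ran from 11.3 to 208 CPM with both Csnk2b-deficient libraries on top, while for Cldn25 WT node Tregs (318 CPM) were above Csnk2b-deficient splenic Tregs (149 CPM).

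At the edge of the call over all genes, Il1rl1, the interleukin-33 receptor gene, was the last gene inside among those higher in Csnk2b-deficient Tregs, with a log2 difference of 2.24. Sema6d, a semaphorin gene, was the first outside with 5.08. Over all genes 0.126% were called higher by genotype and 0.018% lower. Both members are among those called higher, which is how they came to be picked, so nothing is read from their calls. With median-of-ratios size factors 4 genes were called higher and 0 lower, compared with 14 and 2, while the log2 differences of Gpr15 and Cldn25 were 2.64 and 1.42.

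The tissue difference was not used to pick the genes, but its test shares 1 residual degree of freedom with the genotype call that was. Its p-values are therefore not independent of that choice. Both genes were higher in the node. For Gpr15 the log2 difference of lymph node over spleen was 1.56 ± 0.26 (SE, n = 2 per tissue, adjusted p = 0.00061 in edgeR's quasi-likelihood test over 11113 genes), with 1.62 in WT and 1.48 in Csnk2b-deficient Tregs. For Cldn25 it was 2.50 ± 0.20 (adjusted p = 5.29e-06), with 2.56 in WT and 2.44 in Csnk2b-deficient Tregs. Each difference had the same direction in both genotypes. Of all genes 23.3% were called higher in the node and 22.2% lower, so that a call in this contrast was common. The median gene stood at -0.17, and by size the differences ranked 1664 for Gpr15 and 369 for Cldn25. Without genotype as a term the Gpr15 difference was 1.52 and lost its call (adjusted p = 0.332). Summed CPM of the 10 myeloid and dendritic markers in the tables was 10.9 in WT and 7.78 in Csnk2b-deficient splenic Tregs, and 54.3 and 307 in the node, most of it Lyz2 in the node libraries, with S100a8 at 0 reads.

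Markers of other cells were also counted beside both genes. The 6 CD8 T and NK cell markers summed to 26.1 and 17.1 CPM in WT and Csnk2b-deficient splenic Tregs and to 54.0 and 49.3 CPM in the node, with Ncr1 at 0 reads. The 7 B and plasma cell markers in the tables summed to 16.7, 18.3, 148 and 135 CPM in the same order, with Pax5 at 0. The 6 epithelial markers summed to 21.7, 31.5, 2.69 and 16.2 CPM, mostly Epcam, with Krt8, Krt5 and Scgb1a1 at 0. The 7 endothelial and stromal markers summed to 150, 103, 224 and 249 CPM, nearly all Pecam1, with Lyve1 at 0, and the 6 erythroid and platelet markers to 0.507, 0.346, 41.8 and 3.95 CPM, with Pf4 and Ppbp at 0. All of these sums but the epithelial one were higher in both node libraries than in both spleen libraries, as Cldn25 was, and their part in the tissue differences was not tested. By genotype the epithelial sum was higher in Csnk2b-deficient Tregs of both tissues, as Gpr15 and Cldn25 were, the B and plasma cell sum in the spleen alone and the myeloid and the endothelial and stromal sums in the node alone, and their part in the genotype differences was not tested either.

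Within a library the reads of the 2 genes can be set against each other without any scaling between libraries. Gpr15 made up 17.3% of the 513 exon reads of both genes in WT splenic Tregs (95% Wilson interval 14.3 to 20.9) and 33.3% of 1292 in Csnk2b-deficient splenic Tregs (30.8 to 35.9). In the node it made up 10.02% of 1447 (8.58 to 11.7) and 20.4% of 4654 (19.2 to 21.5). Its share was higher in Csnk2b-deficient Tregs of both tissues, and lower in the node for both genotypes. The ratio of Gpr15 to Cldn25 was 2.38 times as high in Csnk2b-deficient as in WT splenic Tregs (1.84 to 3.07, 95% interval from the log odds ratio) and 2.29 times as high in the node (1.91 to 2.76). The ratio of Cldn25 to Gpr15 was 1.89 times as high in the node as in the spleen of WT (1.42 to 2.51) and 1.95 times as high in Csnk2b-deficient Tregs (1.70 to 2.24). Per length of exon, Cldn25 was at 2.40 times the level of Gpr15 in WT spleen, 1.01 times in Csnk2b-deficient spleen, 4.52 times in WT node and 1.97 times in Csnk2b-deficient node Tregs. The genes thus moved in the same direction in both contrasts and by unequal factors, Gpr15 more by genotype and Cldn25 more by tissue.

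**Figure D2:**
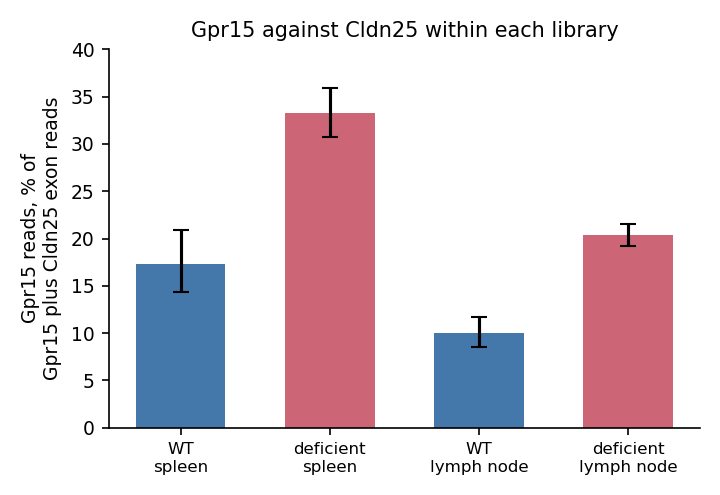
Gpr15 exon reads as a percentage of the exon reads of Gpr15 and Cldn25 together, 1 bar per library from 0, blue for WT and red for Csnk2b-deficient Tregs, with 95% Wilson intervals. The share was 17.3% and 33.3% in spleen and 10.02% and 20.4% in the node, higher in Csnk2b-deficient Tregs of either tissue.

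All reads of both genes were uniquely placed in every library. Gpr15 had 0 reads outside its exon and 0 exon-exon reads, which its single exon makes necessary, so its reads do not distinguish processed messenger RNA from other sequence of the same place. The authors' median coverage of Gpr15 was 4 and 17 reads in spleen and 5 and 33 in the node (WT, then Csnk2b-deficient). For Cldn25 it was 8 and 18, and 21 and 70. Coverage thus had the same order as the exon reads for each gene.

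Cldn25 has introns, and its junction reads could be followed apart from its other exon reads. Exon-exon reads numbered 45 and 94 in spleen and 114 and 321 in the node, a ratio of Csnk2b-deficient to WT of 2.85 (95% exact binomial interval 1.98 to 4.16) and 2.53 (2.03 to 3.16). Of the exon reads of the spleen they were 10.6% and 10.9%, and 8.76% and 8.66% in the node, so within each tissue the share differed by less than counting error. Intron-exon reads were few, 6 and 16 in spleen and 7 and 19 in the node, with ratios of 3.64 (1.35 to 11.4) and 2.44 (0.98 to 6.85). The tables list 4 and 5 detected transcripts in spleen and 3 and 4 in the node, of 6.

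Reads outside the exons of Cldn25 differed by tissue and, in the node, by genotype. In the spleen 46 of 470 gene reads lay outside exons in WT, or 9.79% (95% Wilson interval 7.42 to 12.8), and 90 of 952 in Csnk2b-deficient Tregs, or 9.45% (7.75 to 11.5). In the node the counts were 6 of 1308, or 0.459% (0.21 to 0.997), and 112 of 3819, or 2.93% (2.44 to 3.52). The spleen shares overlapped and the node shares did not. The number of reads outside exons was 2.67 times as high in Csnk2b-deficient as in WT Tregs in the spleen (1.85 to 3.89), near the exon ratio, and 16.7 times in the node (7.46 to 46.6), from 6 reads in WT. The share was low for a gene with introns in each library. The median over genes with more than 1 exon and at least 400 gene reads was 18.9% and 19.3% in spleen and 14.2% and 14.7% in the node, and Cldn25 was above 23.5% and 21.99% of those genes in spleen and above 9.89% and 18.7% in the node.

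Most other features of the neighbourhood had few or no reads, and Cpox had the most. Within 500 kb on either side the tables list 26 other features with an exon length, and 10 of them had at least 1 exon read. Of these 10, 7 were olfactory receptor genes, which are known for their expression in the nose. The 20 olfactory receptor features had 16 reads over the 4 libraries. Of these reads 3 and 12 were in WT and Csnk2b-deficient splenic Tregs, and 0 and 1 in the node. The olfactory receptor genes with reads were Olfr172, Olfr173, Olfr177, Olfr178, Olfr183, Olfr186 and Olfr187, with at most 4 reads each, and they were not tested. Dcbld2, a membrane protein gene 248 kb from Gpr15, had 9 and 22 reads in spleen and 0 and 7 in the node and was too low to be tested. On these few reads its log2 ratio was 1.47 in spleen and 2.40 in the node, higher in Csnk2b-deficient Tregs of both tissues.

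Cpox and St3gal6 were the neighbours with enough reads for the test, and 0 of these 2 were called by genotype, compared with 0.144% of all genes in either direction. At an unadjusted p below 0.05 the count was also 0, and it was 0 in DESeq2 and limma-voom. Cpox, which encodes an enzyme of heme synthesis, lies 37.0 kb from Gpr15 and had 248 and 304 exon reads in spleen and 83 and 84 in the node. Its log2 difference by genotype was 0.32 ± 0.40 (SE, n = 2 per genotype, edgeR adjusted p = 0.922), and the pairs gave 0.73 in spleen and -0.14 in the node. By tissue it was -1.07 ± 0.40 (adjusted p = 0.0468), lower in the node where Gpr15 and Cldn25 were higher, and this call was made in 5 of 9 alternative fits. St3gal6, a sialyltransferase gene 193 kb away, had 17 and 10 reads in spleen and 22 and 35 in the node, with a genotype difference of 0.12 ± 1.12 (adjusted p = 0.993).

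**Figure D3:**
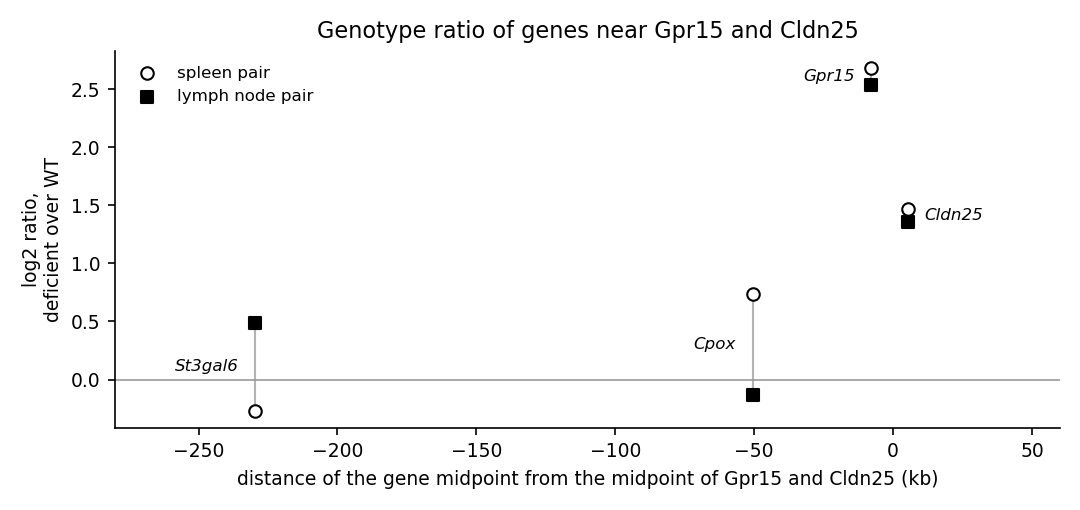
Log2 ratio of Csnk2b-deficient over WT Tregs (y axis, prior count of 2) for the neighbours that were tested and for Gpr15 and Cldn25, against the distance of each gene's midpoint from the middle of the pair in kb, with open circles for the splenic pair and squares for the node pair. Gpr15 (2.68 and 2.54) and Cldn25 (1.47 and 1.35) lie well above 0 in both tissues, while Cpox (0.73 and -0.14) and St3gal6 (-0.27 and 0.49) each lie on both sides of 0.

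Among T cell homing receptors other than Gpr15, the integrin chain gene Itgae was the one called higher by genotype in the main fit. Itgae encodes CD103, which binds E-cadherin on epithelium, and had 635 and 1889 exon reads in spleen and 554 and 3419 in the node. Its log2 difference by genotype was 2.24 ± 0.21 (SE, n = 2 per genotype, edgeR adjusted p = 0.00237), with 2.02 and 2.47 in the pairs. That call was made in 8 of 9 alternative fits and lost without tissue as a term. Of 26 tested members of the list without Gpr15, 1 was called higher and 0 lower, beside 0.126% and 0.018% of all genes. The median log2 difference of the 26 was 0.14, compared with 0.01 over all genes. At an unadjusted p below 0.05, 5 of the 26 were higher and 4 lower, beside 297 and 245 of 11113 over all genes.

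Other homing receptors did not pass the test by genotype in the main fit, though some passed in alternative fits. The inflammatory chemokine receptor genes Ccr2 and Cxcr3 had log2 differences of 1.35 ± 0.29 (edgeR adjusted p = 0.209) and 1.30 ± 0.31 (adjusted p = 0.293). For the other gut homing receptors, the integrin chain genes Itga4 and Itgb7 had 0.38 and -0.16, and Ccr9, the receptor for the small intestinal chemokine, had 15 and 7 reads in spleen and 13 and 1 in the node. These 3 genes were named after their values were seen. By tissue 7 of the 26 were called higher in the node and 6 lower, near the 23.3% and 22.2% of all genes. The other 6 members of the list, among them Cxcr6 with 0, 4, 5 and 124 reads, were too low in some libraries to be tested.

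Of genes known to act on Gpr15 in T cells, or to belong to the same control, 19 were tested. Of these 0 were called higher and 1 lower, beside 0.126% and 0.018% of all genes. At an unadjusted p below 0.05, 2 were higher and 2 lower, beside 297 and 245 of 11113 over all genes. The median of the 19 was -0.20, compared with 0.01 over all genes. Ahr, the aryl hydrocarbon receptor gene, had 190 and 431 reads in spleen and 72 and 368 in the node, with a log2 difference of 1.90 ± 0.33 (SE, n = 2 per genotype, edgeR adjusted p = 0.0747), higher in both pairs at 1.62 and 2.17. It missed the threshold, which it passed in 3 of 9 alternative fits, those without a filter, with DESeq2 and with limma-voom. Ahrr, the repressor gene of that receptor, had 2, 5, 0 and 7 reads and was not tested. Foxp3, the transcription factor gene that defines Tregs, fell by 1.66 on the log2 scale (SE 0.25, adjusted p = 0.0375). Of its exon reads 25.9% were uniquely placed, and on uniquely placed reads the difference was -0.71 and not called, so its size is uncertain. Its call was made in 4 of 9 alternative fits. Tgfbr1, a TGF-beta receptor chain gene, had -0.78 ± 0.26 (adjusted p = 0.764) and Rora, a nuclear receptor gene, 0.54 ± 0.24 (adjusted p = 0.89). The gene of the Gpr15 ligand is not analysed here.

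Set beside other receptors per length of exon, Gpr15 changed its place. Its RPKM (exon reads over kilobases of exon, with total gene reads as the library size) was 7.88 in WT and 52.0 in Csnk2b-deficient splenic Tregs, and 18.4 and 105 in the node. Among 33 homing receptors including Gpr15 it ranked 20 and 12 in spleen and 16 and 5 in the node, in the same order. In both Csnk2b-deficient libraries the next above was Itgae (64.3 and 107 RPKM) and the next below was Ccr7, the receptor for entry into lymph nodes (39.4 and 98.2 RPKM). Among 94 receptors named Gpr it ranked 6 and 4 in the WT libraries and 1 in each Csnk2b-deficient library. It stood level with Gpr132 in the spleen (51.9 RPKM), and in the node the next was Gpr65 at 49.6 RPKM.

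The other Gpr-named receptors were not called by genotype in the main fit. Of 93 listed, 50 had reads and 25 were tested. Of these 25, 0 were called in either direction, beside 0.144% of all genes. At an unadjusted p below 0.05, 1 was higher and 1 lower, beside 297 and 245 of 11113 over all genes. The median of the 25 was 0.11. DESeq2 and limma-voom also called 0 of the list, and the fit without a filter called 1. Gpr83, a receptor gene known for its expression in Tregs, had -0.68 ± 0.23 (SE, n = 2 per genotype, edgeR adjusted p = 0.77), and Gpr108 had 0.68 ± 0.32 (adjusted p = 0.89). Gpr183, the oxysterol receptor gene EBI2, which is also on the homing list, had 17 and 21 reads in spleen and 7 and 94 in the node, with 2.13 ± 1.05 (adjusted p = 0.89). Of the Gpr183 reads 51.1% were uniquely placed.

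Cldn25 had a higher level than the genes named as claudins. Its RPKM was 18.9 and 52.4 in spleen and 83.2 and 206 in the node (WT, then Csnk2b-deficient), the highest of 28 claudins including itself in each library. Cldn12 came next with 1.23, 2.72, 1.45 and 1.37 RPKM. Of the 27 other claudins 11 had a read and 2 were tested. Of these 2, 0 were called by genotype or by tissue, beside 0.144% and 45.4% of all genes. At an unadjusted p below 0.05 the count was 0 in either contrast, and DESeq2 and limma-voom called 0 by genotype. Cldn12 had 44 and 71 reads in spleen and 36 and 39 in the node, a log2 difference by genotype of 0.56 ± 0.76 (edgeR adjusted p = 0.936). Cldn10, a claudin that forms ion channels in epithelium, had 16, 1, 1 and 15 reads (adjusted p = 0.996). Epithelial markers other than Epcam were at 0 to 17 reads per gene and library.

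Relatives of claudins and partners at the tight junction were mostly low, with Emp3 and Nkg7 as exceptions. Of the 19 that were counted, 7 were tested, and 0 were called by genotype, beside 0.144% of all genes. At an unadjusted p below 0.05 the count was 0, DESeq2 and limma-voom called 0, and the median was -0.01. The tricellular junction gene Marveld2 had 1.43 ± 0.83 and Emp1, a membrane protein gene of the wider claudin superfamily, 2.30 ± 1.64 (SE, n = 2 per genotype, edgeR adjusted p = 0.89 for each). Nkg7, a granule protein gene of cytotoxic cells whose protein has the claudin-like fold, had -0.46 ± 0.42 (adjusted p = 0.895). By tissue 2 of the 7 were called higher in the node and 2 lower, beside 23.3% and 22.2% of all genes. Emp3, another gene of the wider superfamily, was above Cldn25 in each library, with 86.3 and 97.8 RPKM in spleen and 409 and 347 RPKM in the node, and was named after its values were seen.

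**Figure D4:**
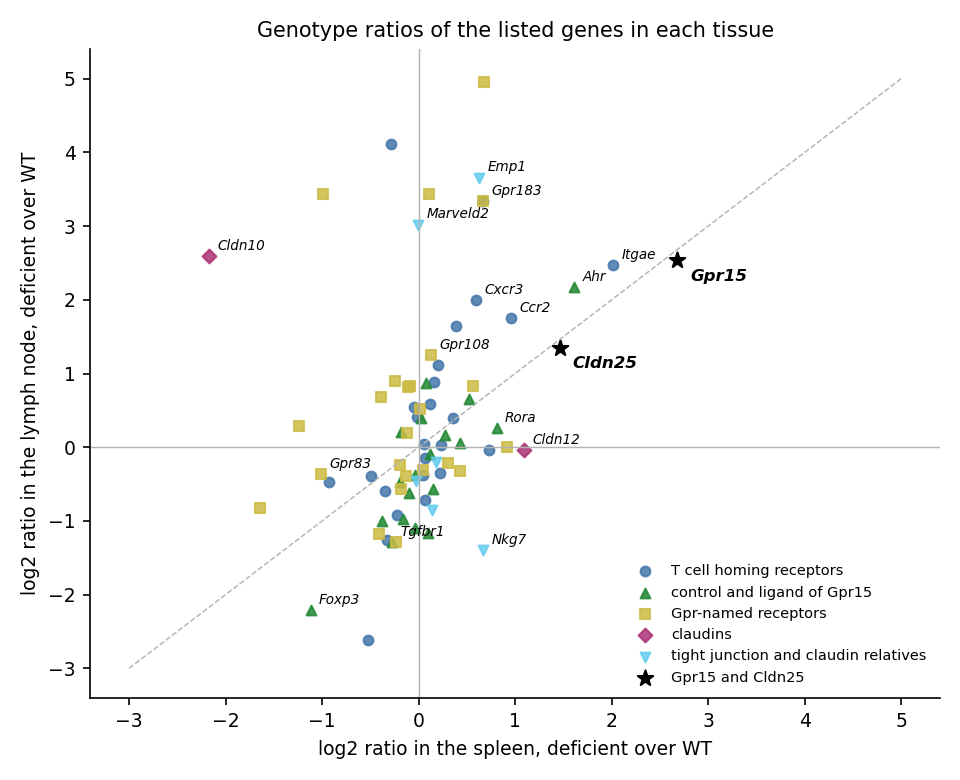
Log2 ratio of Csnk2b-deficient over WT Tregs in the spleen (x axis) and in the node (y axis), with a prior count of 2, for tested members of 5 lists by colour and shape, with Gpr15 and Cldn25 as black stars, the dashed line for equal ratios and names for genes chosen by rule. Gpr15 (2.68, 2.54) and Cldn25 (1.47, 1.35) lie near the dashed line, as Itgae (2.02, 2.47) does above it; Foxp3 lies below 0 on both axes and Cldn10 and Nkg7 have opposite signs on them.

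The genes whose pattern over the 4 libraries was most like that of each member were taken by the Euclidean distance of centred log2 CPM, among 9661 genes with a mean of at least 5 CPM. For Gpr15 they were Zcchc18 (distance 0.62), H2-Eb1 (0.63), Itgae (0.75), Penk (0.98) and F830016B08Rik (1.14). H2-Eb1, an MHC class II chain gene, had 7 and 40 reads in spleen and 23 and 134 in the node. Penk, the enkephalin precursor gene, had 563 and 1209, and 790 and 2949 reads. Of the Zcchc18 reads 20.99% were uniquely placed. In these genes, as in Gpr15, Csnk2b-deficient node Tregs were the highest and WT splenic Tregs the lowest.

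For Cldn25 the nearest were Id2 (0.34), Cd74 (0.35), Trav14n-3 (0.35), Tmem176b (0.44) and Rps6-ps2 (0.50). Id2, which encodes an inhibitor of E-protein transcription factors, had 180 and 456 reads in spleen and 518 and 1463 in the node. Cd74, the MHC class II invariant chain gene, had 365 and 738, and 1081 and 2391 reads. Trav14n-3 (38.4% of reads uniquely placed) and Rps6-ps2 (2.24%) share sequence with other copies. For each of the 5, as for Cldn25, the order from lowest to highest was WT spleen, Csnk2b-deficient spleen, WT node and Csnk2b-deficient node Tregs. The members were not each other's nearest genes: Cldn25 was number 24 from Gpr15, and Gpr15 number 720 from Cldn25, at a distance of 1.53. Over 4 libraries such likeness is a description, with no test.

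**Figure D5:**
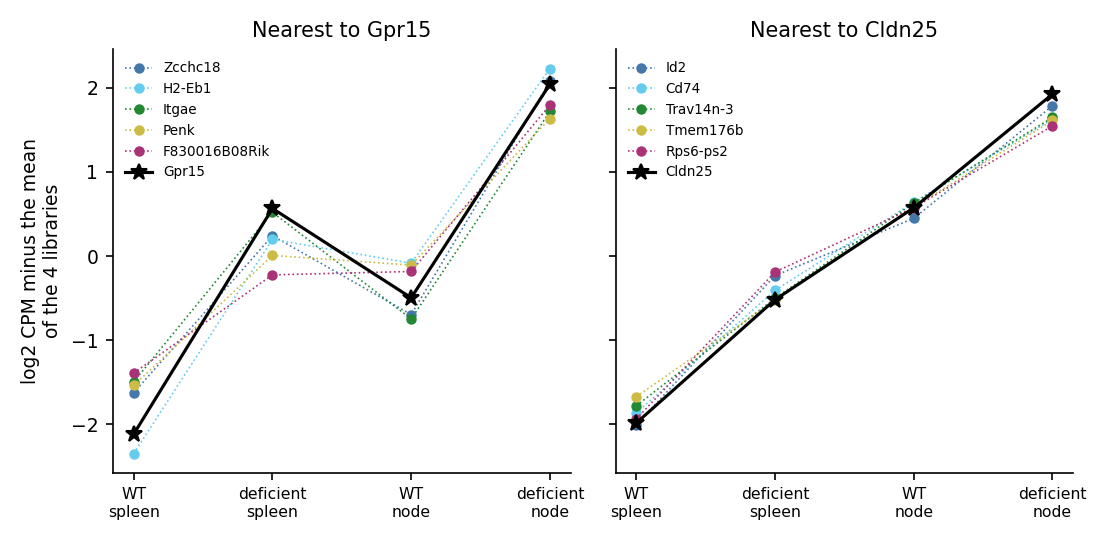
Centred log2 CPM (each gene minus its mean over the 4 libraries) of Gpr15 on the left and Cldn25 on the right, as black stars, with the 5 genes nearest to each in colour, for WT and Csnk2b-deficient Tregs of the spleen and then of the node; lines only join the points of a gene. Gpr15 was at -2.12 and 0.57 in spleen and -0.50 and 2.04 in the node, Cldn25 at -1.98, -0.52, 0.57 and 1.93.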

How the data were processed

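Exon reads were counted in 4 Treg libraries sequenced on an Illumina MiSeq. The deposited tables hold, per the file headers, counts of total and unique reads per gene, exon and junction, and the median coverage of each gene. The submitters' processing notes name CASAVA 1.8.2 and mm9. No aligner, annotation or use of strand is given in the sources used here. Left out were 9551 of 37583 features, which lacked an exon length and had 0 exon reads. Uniquely placed reads made up 78.3% to 86.2% of exon reads.

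Total exon reads were tested over 11113 genes in R 4.3.3 with edgeR 4.0.16 (low counts removed by filterByExpr within genotype, TMM, robust quasi-likelihood, tissue plus genotype, Benjamini-Hochberg, threshold 0.05). With 1 library per tissue and genotype, 1 residual degree of freedom remained, moderated across genes, so SEs and p-values do not measure the spread between animals. The replicate numbers name the tissue, and the 2 libraries of a number are called a pair. Deviations within a number correlated at 0.783. Since each number is a tissue, that correlation cannot show any pairing beyond tissue. Ratios within a pair use log2 CPM with a prior count of 2. RPKM was recomputed from the counts. Scripts were tested on data simulated with less variation than was fitted in these libraries, which checks the code and not the error rates here. DESeq2 1.42.0 and limma-voom (3.58.1) were among the alternatives.

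The members, lists and tests were chosen with earlier results of these data known. Besides the members, Csnk2b and Foxp3, the genes named were neighbours with a read, the 5 genes nearest each member, and per list those called and otherwise up to 4 by unadjusted p. Exceptions are stated, and some genes that the rule took are not reported here. Sequences are from the RefSeq tables on GRCm38.p6, and both members matched.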

Additional observations from a re-analysis of the deposited data

Results flagged for a closer look

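Cldn10 and Nkg7 were flagged because their directions differed between the tissues, so nothing is read from the size of the gaps. Cldn10 had at most 16 reads in a library. Its log2 ratio of Csnk2b-deficient over WT Tregs was -2.17 in the spleen (16 and 1 reads) and 2.60 in the lymph node (1 and 15 reads), a gap of 4.76. Nkg7 had 0.67 in the spleen (119 and 140 reads) and -1.40 in the lymph node (1617 and 683 reads), a gap of 2.07. With 1 library per tissue and genotype these differences between the tissues were not tested.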

How the results depend on the processing

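The genotype differences of Gpr15 and Cldn25 moved by less than the SD between the pairs in all 15 alternatives each, from 2.55 to 2.71 and from 1.36 to 1.49. The ends of these ranges came from leaving out 1 library, which leaves 1 pair. Either of 2 pairs lies within that SD of their mean whatever the values, so these alternatives could not show a larger move. Leaving out each library in turn gave tissue differences of 1.45 to 1.59 for Gpr15 and 2.42 to 2.53 for Cldn25, as values with no test. For the tissue difference, where tissue is itself the replicate block, the fit without a second term left out genotype: Gpr15 was at 1.52 and lost its call (adjusted p = 0.332), while Cldn25 kept it. Upper-quartile scaling moved the median tissue difference of all genes by -0.15, with Gpr15 at 1.40 and Cldn25 at 2.35. Genes called by genotype numbered 16, compared with 4 with median-of-ratios size factors (4 and 0), 7 on uniquely placed reads (7 higher, 0 lower), 50 with DESeq2 (35 and 15), 64 with limma-voom (42 and 22), 111 without a filter (79 and 32), 0 without the replicate block in edgeR (29 at an unadjusted p below 0.05) and 0 to 1 without single libraries and without the block. In those last fits a lone library is assumed to vary like the others. Genes called by tissue numbered 5050, 4662 without the genotype term, and 2186 to 7874 without single libraries and without that term (2322 without Csnk2b-deficient replicate 1). Homing receptors called by genotype numbered 1, compared with 4 without a filter (3 and 1), 3 with DESeq2 (2 and 1), 4 with limma-voom (3 and 1), 0 without the replicate block in edgeR (1 at an unadjusted p below 0.05) and 0 to 0 without single libraries and without the block. Neighbours called stayed at 0 in all 15 alternatives, windows of 250 and 1000 kb included. In the main fit 2 neighbours were tested and 0.144% of all genes were called, so a count of 0 says little of the neighbours. No direction was reversed in any of the alternatives. The causes of these changes were not tested. The olfactory receptor genes and most claudins had few or no reads, so little can be said of them at this depth.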
